A study of Mus musculus with 29 samples.

Results

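Cell cycle and DNA replication genes were followed in mouse liver on 2-colour oligonucleotide arrays. The set held 40 genes, chosen by name, and every array feature other than a control that carried 1 of these names was read. That gave 57 probes on 75 spots, of 39429 probes on 43020 spots in all. Livers came from 29 male C57BL/6N mice, 1 array per liver. All ate a corn oil-based high-fat diet (cHF) for 7 weeks from the age of 3 months. In 8 mice about 7% of the dietary lipid was replaced by omega-3 phospholipids rich in phosphatidylcholine, which carry EPA and DHA (cHF+PC). Another 6 received a low dose of rosiglitazone, which activates the nuclear receptor PPAR-gamma (cHF+R), 8 received both (cHF+PC+R), and 7 ate cHF alone. No group ate a diet low in fat, so each change is relative to a high-fat diet.

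Cells divide when cyclins bind and activate cyclin-dependent kinases (CDKs). D-type cyclins act early in G1, E-type cyclins at the entry into S phase, and A- and B-type cyclins until mitosis. Replication origins are licensed in G1 when the MCM helicase is loaded, and deoxynucleotides are made in step with S phase. Most hepatocytes of an adult liver are quiescent and re-enter the cycle after injury or loss of tissue, so whole-liver RNA holds little message of the mitotic genes, and part of it can come from other cells. In such bulk samples fewer cells of a type and less RNA per cell cannot be told apart.

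Values below are log2(Cy5/Cy3), with 1 liver in Cy5 and the pool of all livers in Cy3, after background correction and loess. Changes are differences between group means of these ratios. A gene was tested if the Cy5 signal of a probe stood well above background on 6 arrays or more. Of the 40 genes, 35 passed and 5 did not. The 5 were the spindle checkpoint kinases Bub1 and Ttk, the mitotic kinase Aurkb, the cyclin Ccne2 and the licensing factor Cdc6. Bub1 was not well above background on any array although it had 10 spots. Of the tested genes, 28 were above background on all 29 arrays. The other 7 were above it on 8 to 28 arrays, the fewest for the checkpoint kinase Bub1b (8) and for Top2a (9). The share of spots well above background was 80.8% on cHF replicate 4 and 55.0% to 62.5% on the other arrays. The hepatocyte list had 11 of 11 markers measured. Over all probes, cHF+R replicate 5 and cHF+PC replicate 6 had the lowest correlation of any pair, r = -0.305. The labels state the dyes, and the pool held all groups, so the direction was kept.

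Because the sequences upstream of these genes are part of how they are regulated, the 250 bases before the start are shown for the 3 genes with the smallest p in any comparison (Rrm2, Cdkn1a and Tk1), and for Mcm2 and Cdk1 as examples of an S-phase and a mitotic gene. They are from RefSeq, build GRCm38.p6, and run 5′ to 3′ along the gene. Capitals mark matches, on either strand, to E2F-type letters (TTTCGCGC, TTTGGCGC, TTTCCCGC), to the letters TTTGAA or TTTAAA of the cell cycle homology region (CHR), to CCAAT, and to CATG, any 6 bases and CATG again, the core letters of a p53-type site. The last was added after the sequence had been read. No match lies on top of another.
Rrm2 (chr12:24708004-24708253, plus strand): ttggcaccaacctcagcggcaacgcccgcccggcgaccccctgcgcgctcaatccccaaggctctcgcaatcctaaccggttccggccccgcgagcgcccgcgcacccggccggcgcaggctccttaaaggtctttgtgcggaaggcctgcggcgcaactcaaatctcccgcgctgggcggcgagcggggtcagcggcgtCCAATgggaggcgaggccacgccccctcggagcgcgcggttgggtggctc
Cdkn1a, upstream start (chr17:29090729-29090978, plus strand): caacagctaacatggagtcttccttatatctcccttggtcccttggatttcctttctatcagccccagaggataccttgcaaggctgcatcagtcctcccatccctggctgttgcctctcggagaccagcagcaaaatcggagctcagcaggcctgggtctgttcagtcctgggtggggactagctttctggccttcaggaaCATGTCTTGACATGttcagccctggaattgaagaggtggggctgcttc
Cdkn1a, downstream start (chr17:29093519-29093768, plus strand): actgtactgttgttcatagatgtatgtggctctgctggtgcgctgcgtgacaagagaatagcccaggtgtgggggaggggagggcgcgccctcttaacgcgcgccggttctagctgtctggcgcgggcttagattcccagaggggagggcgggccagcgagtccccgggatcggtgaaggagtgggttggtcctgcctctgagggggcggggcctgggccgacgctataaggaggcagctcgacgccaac
Tk1 (chr11:117826015-117826264, minus strand): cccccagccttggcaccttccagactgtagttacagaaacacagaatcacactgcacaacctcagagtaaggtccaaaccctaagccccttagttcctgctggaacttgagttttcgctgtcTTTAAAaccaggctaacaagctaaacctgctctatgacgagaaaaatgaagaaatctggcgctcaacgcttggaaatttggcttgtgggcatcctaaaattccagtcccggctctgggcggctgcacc
Mcm2 (chr6:88898781-88899030, minus strand): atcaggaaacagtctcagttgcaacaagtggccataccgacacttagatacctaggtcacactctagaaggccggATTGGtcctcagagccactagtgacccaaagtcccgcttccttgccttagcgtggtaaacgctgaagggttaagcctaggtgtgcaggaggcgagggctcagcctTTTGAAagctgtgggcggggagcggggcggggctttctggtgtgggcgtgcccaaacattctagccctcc
Cdk1 (chr10:69352913-69353162, minus strand): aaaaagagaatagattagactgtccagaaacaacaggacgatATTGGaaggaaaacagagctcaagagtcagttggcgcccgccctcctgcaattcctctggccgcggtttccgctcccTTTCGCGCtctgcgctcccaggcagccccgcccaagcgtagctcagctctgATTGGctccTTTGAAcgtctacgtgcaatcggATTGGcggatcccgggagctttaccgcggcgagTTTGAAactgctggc

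The Cdk1 window held an E2F-type match, TTTGAA on 2 places and CCAAT on 3, while the Rrm2 window held only a CCAAT, from 50 to 46 bases before the start. The Mcm2 window held TTTGAA and a CCAAT on the opposite strand, the Tk1 window held TTTAAA, and the upstream Cdkn1a window held the p53-type letters from 48 to 35 bases before the start. Of the 40 genes, 33 had a window in the RefSeq table, and windows of all starts of a gene were searched. CCAAT stood in a window of 23 of the 33 (69.7%), against 37.5% of the 27025 genes with a window. Either CHR form stood in 15 (45.5%), against 28.1%, and any E2F-type form in 6 (18.2%; Cdk1, Cdk2, Cdc6, Mcm5, Mcm6 and Mcm7), against 1.78%. The p53-type letters stood in a window of 1 of the 33 (3.03%, Cdkn1a), against 0.57% of all genes. They were chosen after the Cdkn1a sequence had been read, so this match and these shares cannot be weighed. A match describes letters and shows no binding.

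Phospholipids lowered Rrm2 with and without rosiglitazone. Rrm2 encodes the small subunit of ribonucleotide reductase, which makes deoxynucleotides from ribonucleotides and is the subunit whose level follows S phase. In mm9, the build of the file headers, its probe covers chr12:25398824-25398883. Without the drug, Rrm2 ran from -0.84 to 0.06 (median -0.16) in the 8 cHF+PC livers, against -0.02 to 0.65 (median 0.28) in the 7 cHF livers. The ranges met near 0, and cHF+PC replicates 2 and 4 were the lowest, at -0.84 and -0.73. It fell by 0.57 ± 0.15 on the log2 scale (SE), 1.48-fold (adjusted p = 0.029), and was lower in cHF+PC on 7 of the 7 slides that carried both groups. Rrm2 was the only 1 of the 35 tested genes that passed in this comparison, where 3.93% of all genes passed.

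With the drug, Rrm2 ran from -0.93 to 0.17 (median -0.40) in cHF+PC+R livers, against -0.29 to 0.70 (median 0.34) in cHF+R livers. It fell by 0.72 ± 0.16 in cHF+PC+R relative to cHF+R (adjusted p = 0.00484), lower on 6 of 6 shared slides. Relative to cHF it fell by 0.72 ± 0.15 in cHF+PC+R (adjusted p = 0.00263), lower on 7 of 7 slides. That was the only 1 of the 35 past the threshold in cHF+PC+R against cHF, where 9.5% of all genes passed. These comparisons share the cHF or the cHF+PC+R livers. Rosiglitazone alone left Rrm2 near cHF, with a change of -0.00 ± 0.16 and a 95% interval from -0.33 to 0.33. Averaged over both drug states, the phospholipids lowered Rrm2 1.56-fold, a log2 change of -0.64 ± 0.11 (adjusted p = 0.000155). The call in cHF+PC against cHF was lost when any 1 of cHF replicates 4, 5 and 6 or cHF+PC replicates 2 and 4 was left out (adjusted p from 0.0583 to 0.079). The calls in the other comparisons were kept without any single array.

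Of the other 3 enzymes of deoxynucleotide supply, Rrm1 and Tyms did not pass in the averaged comparison and Tk1 rose. Rrm1, the large reductase subunit, had an averaged phospholipid change of -0.08 ± 0.04 (adjusted p = 0.232), with an interval from -0.17 to 0.01. Its change in cHF+PC+R against cHF was -0.12 ± 0.06 (adjusted p = 0.206; interval -0.25 to 0.00), lower on 6 of 7 slides. Tyms, thymidylate synthase, had an averaged phospholipid change of 0.02 ± 0.03 (adjusted p = 0.676). Tk1, the cytosolic thymidine kinase of the salvage pathway, ran from -0.03 to 0.46 (median 0.03) in cHF+PC, from -0.46 to 0.20 (median -0.17) in cHF+R, from -0.42 to 0.54 (median 0.17) in cHF+PC+R and from -0.24 to 0.04 (median -0.11) in cHF. All groups overlapped. Averaged over both drug states, Tk1 rose by 0.27 ± 0.08 with phospholipids (adjusted p = 0.0161). The single comparisons were 0.24 in cHF+PC against cHF (adjusted p = 0.233), 0.28 in cHF+PC+R against cHF (adjusted p = 0.099) and 0.31 in cHF+PC+R against cHF+R (adjusted p = 0.0929).

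**Figure D1:**
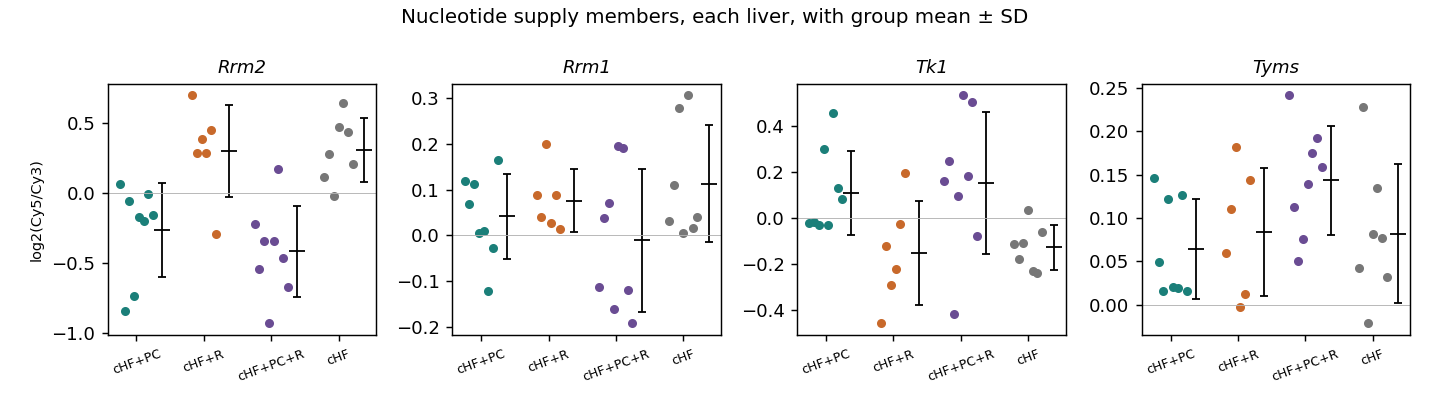
Log2(Cy5/Cy3) of the nucleotide supply genes Rrm2, Rrm1, Tk1 and Tyms in each liver (points) by diet group, with the group mean and SD (bars). Rrm2 averaged -0.26 in cHF+PC and -0.42 in cHF+PC+R livers, against 0.30 in cHF+R and 0.31 in cHF livers.

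In the averaged phospholipid comparison 6 of the 35 genes passed (17.1%), against 16.2% of all genes, so the share was near the background. Tk1 and the CDK inhibitor Cdkn1b (p27) rose, and Rrm2, Mcm2, Mcm3 and Ccnb1 fell. The median change was -0.08 over the 35 genes and 0.00 over all genes tested.

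Mcm2 and Mcm3 are subunits of the MCM helicase, which is loaded at origins and unwinds DNA ahead of the fork. Mcm2 ran from -0.34 to 0.10 (median 0.00) in cHF+PC, from -0.09 to 0.50 (median 0.16) in cHF+R, from -0.30 to 0.15 (median -0.05) in cHF+PC+R and from -0.08 to 0.28 (median 0.09) in cHF. The groups overlapped, with the cHF+R livers highest. Mcm2 fell by 0.21 ± 0.06 in the averaged comparison (adjusted p = 0.0191) and by 0.29 ± 0.09 in cHF+PC+R relative to cHF+R (adjusted p = 0.0465), lower on 6 of 6 slides. Against cHF it did not pass in cHF+PC or in cHF+PC+R. Its means were -0.06 and -0.09 there, against 0.07 in cHF and 0.20 in cHF+R.

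Mcm3 ran from -0.33 to 0.21 (median -0.20) in 7 of the 8 cHF+PC livers, since replicate 8 had no usable spot. It ran from -0.16 to 0.39 (median 0.18) in cHF+R, from -0.31 to 0.17 (median -0.10) in cHF+PC+R and from -0.26 to 0.28 (median 0.12) in cHF, again with overlap. Mcm3 fell by 0.21 ± 0.07 in the averaged comparison (adjusted p = 0.0445), a call that was lost when any of 17 of the 29 arrays was left out (adjusted p up to 0.0884). The other MCM subunits, Mcm4 to Mcm7, had averaged changes from -0.12 to -0.08 and did not pass. Of the 9 tested genes of licensing and the fork, 7 had a negative averaged change, with a median of -0.09, and 7 or 8 had one under every other setting tried. Cdc45, which joins MCM to form the active helicase, was at 0.01, and Pcna, the sliding clamp, was at 0.05 ± 0.03 (adjusted p = 0.299). Cdt1, which loads MCM with Cdc6, was at -0.09 (adjusted p = 0.452). Against cHF, 0 of these 9 genes passed by limma in cHF+PC or in cHF+PC+R. At an unadjusted p under 0.05 there were 0 in either, against 18.5% and 24.4% of all genes.

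Cdkn1b restrains CDK2 in quiescent cells. It ran from 0.06 to 0.51 (median 0.19) in cHF+PC, from -0.12 to 0.36 (median 0.08) in cHF+R, from 0.09 to 0.38 (median 0.21) in cHF+PC+R and from -0.05 to 0.19 (median 0.07) in cHF. Every liver given phospholipids was above 0, as were 6 of the 7 cHF livers and 4 of the 6 cHF+R livers, and the groups overlapped. The averaged rise was small, 0.15 ± 0.05 (adjusted p = 0.0303), and was lost without cHF replicate 6 or cHF+R replicates 1, 3 or 4 (adjusted p from 0.0501 to 0.0672). In cHF+PC against cHF the change was also 0.15 (adjusted p = 0.209), and in cHF+PC+R against cHF it was 0.16 (adjusted p = 0.115).

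Ccnb1, the mitotic cyclin B1, ran from -0.25 to 0.02 (median -0.05) in cHF+PC, from 0.08 to 0.64 (median 0.29) in cHF+R, from -0.35 to 0.39 (median 0.01) in cHF+PC+R and from -0.22 to 0.30 (median 0.02) in cHF. The cHF+R livers held the highest values and overlapped those of cHF+PC+R and cHF. Ccnb1 fell by 0.22 ± 0.07 in the averaged comparison (adjusted p = 0.0234), which became 0.0518 without cHF+R replicate 2. In cHF+PC+R relative to cHF+R it fell by 0.30 ± 0.10 (adjusted p = 0.0496). Against cHF, Ccnb1 did not pass in cHF+PC or in cHF+PC+R. Its means were -0.07 in cHF+PC and 0.02 in cHF+PC+R, against 0.06 in cHF and 0.32 in cHF+R. The call relative to cHF+R was lost without any 1 of 20 of the 29 arrays (adjusted p up to 0.14), and that of Mcm2 in the same comparison without any 1 of 18 (adjusted p up to 0.157).

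Rosiglitazone alone raised 1 of the 35 genes, Cdkn1a, against 3.12% of all genes that passed in this comparison. Cdkn1a encodes p21, the CDK inhibitor that p53 induces. It was read from 10 spots per array, with a median SD between spots of 0.06. Cdkn1a ran from 0.09 to 0.80 (median 0.53) in cHF+R, against -0.39 to -0.06 (median -0.24) in cHF. All 6 cHF+R livers were above all 7 cHF livers. Groups were apart in this way for 2.12% of all genes. The rise was 0.70 ± 0.17, or 1.63-fold (adjusted p = 0.0143), on 5 of 5 slides, and passed without any single array. It was larger but did not pass on the scanner software's processed signals (1.25, adjusted p = 0.12) and in the authors' deposited value table (0.94, adjusted p = 0.0521), and it was 0.58 (adjusted p = 0.0975) with scaling between arrays.

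When phospholipids were added to the drug, Cdkn1a ran from -0.74 to 0.38 (median -0.23) in cHF+PC+R, and in cHF+PC it ran from -0.85 to 0.34 (median -0.14). Both overlapped cHF widely. Cdkn1a fell by 0.65 ± 0.16 in cHF+PC+R relative to cHF+R (adjusted p = 0.0135), lower on 5 of 6 slides. The changes against cHF were 0.02 in cHF+PC and 0.05 in cHF+PC+R. The drug's effect with phospholipids minus that without them was -0.67 ± 0.22 by limma, which did not pass over all genes (adjusted p = 0.63). No gene passed limma's interaction test, with 1291 (6.63%) at an unadjusted p under 0.05, and Cdkn1a was the 1 of the 35 among them. In cHF+PC+R against cHF+R, 4 of the 35 genes fell (11.4%; Rrm2, Cdkn1a, Mcm2 and Ccnb1) and 0 rose, against 7.14% of all genes that passed in either direction.

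In cHF+R against cHF, adipocyte-type transcripts moved in the same direction as Cdkn1a in their group values. Cfd, the adipocyte protease adipsin, ran from -1.26 to 2.95 (median 1.11) in cHF+R, against -4.65 to -2.46 (median -3.35) in cHF, and from -4.96 to 2.84 (median -2.72) in 7 of the 8 cHF+PC+R livers. It rose by 4.51 ± 0.84 in cHF+R (adjusted p = 0.00149). Cfd and Retn passed there, and the mean of the 3 adipocyte markers measured ran from -0.96 to 2.27 in cHF+R, against -2.12 to -1.10 in cHF. By liver, cHF+R replicate 1 was the highest of its group for this mean (2.27) and for Cdkn1a (0.80). Replicate 6 of that group had the lowest mean, -0.96, with Cdkn1a at 0.61. Among cHF+PC+R livers, replicate 6 had the highest mean, 1.82, with Cdkn1a at -0.14. Replicate 2 had the lowest, -2.30, with Cdkn1a at 0.26. The defining adipocyte genes Adipoq, Plin1 and Lep did not pass the filter on dim probes. The part of these transcripts in the change of Cdkn1a was not tested. Lrat, which marks stellate cells, fell with phospholipids by 0.53 ± 0.07 in the averaged comparison (adjusted p = 2.07e-06), 1 of 7 stellate markers, and Cdh5, of endothelial cells, by 0.16 ± 0.03 (adjusted p = 0.00172), 1 of 7. Of the 11 hepatocyte markers 9 had a positive change there. Cps1, Tdo2 and Pck1 rose by 0.49, 0.19 and 0.68 (adjusted p = 0.00137, 0.00443 and 0.0428), and Ttr fell by 0.39 (adjusted p = 0.000647). Klf1, of erythroid cells, rose by 0.22 (adjusted p = 0.00555), 1 of 5. The part of these markers in the changes of Rrm2, Mcm2 and Mcm3 was not tested.

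Ccnd1, cyclin D1, which carries growth signals into G1, had the next smallest p with rosiglitazone. It ran from -0.25 to 0.59 (median 0.23) in cHF+R, against -0.66 to -0.05 (median -0.31) in cHF. The groups overlapped through 1 cHF+R liver. The change was 0.56 ± 0.18, higher on 5 of 5 slides, and did not pass (adjusted p = 0.0867). With both additions it ran from -0.67 to 0.87 (median -0.03) in cHF+PC+R, with a change of 0.32 ± 0.17 against cHF (adjusted p = 0.227). In cHF+PC it ran from -0.44 to 0.35 (median -0.20), with a change of 0.21. With rosiglitazone the remaining G1 genes stayed close to cHF: Ccnd2, Ccne1, Cdk2 and Cdk4 had changes from -0.02 to 0.08. Cdk4 had 3 probes. In cHF+PC against cHF the brightest gave 0.07 (adjusted p = 0.253), while the dimmest gave 0.17 and passed over all probes (adjusted p = 0.0305). The third gave 0.09 (adjusted p = 0.167 over all probes). The dimmest was above background on all 29 arrays. Over all probes it also passed in cHF+PC+R against cHF (0.14, adjusted p = 0.0497) and in the averaged phospholipid comparison (0.10, adjusted p = 0.0272). The others did not pass in either. Ccne1 held a single high liver, cHF+PC replicate 4 at 0.91, where the next was 0.19.

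**Figure D2:**
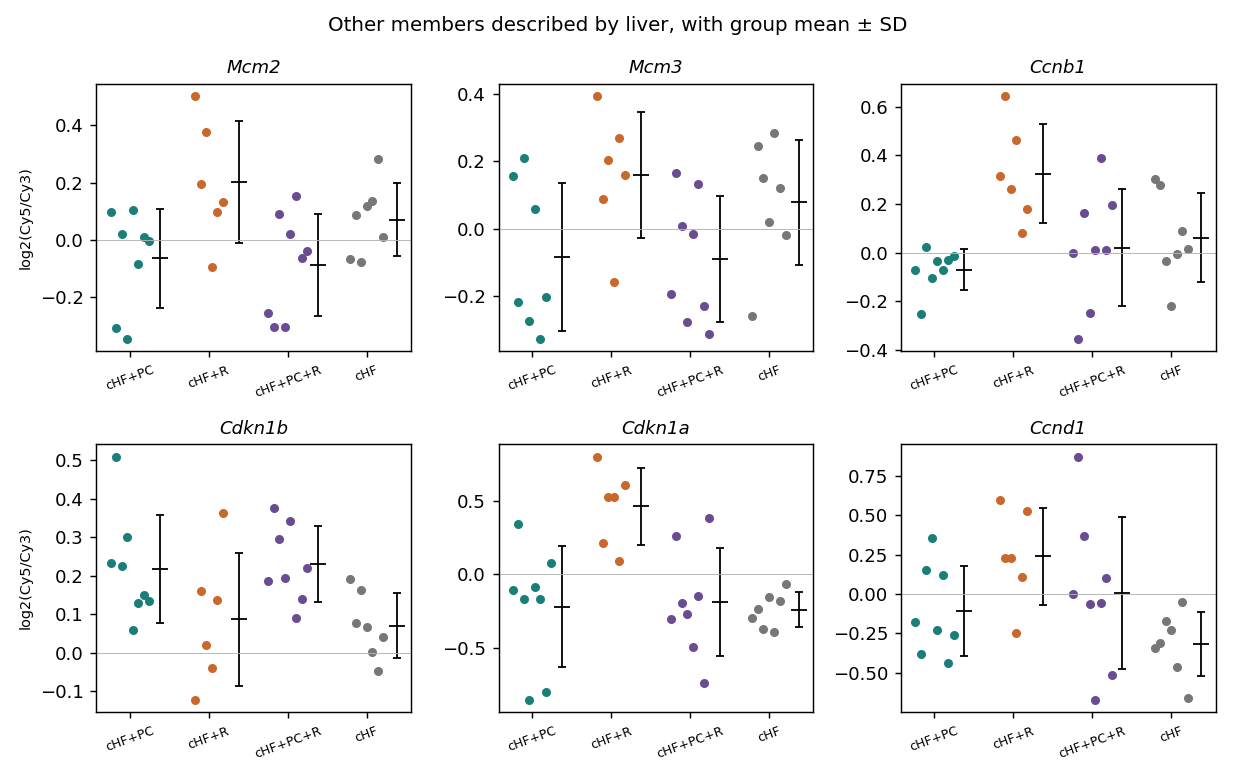
Log2(Cy5/Cy3) of Mcm2, Mcm3, Ccnb1, Cdkn1b, Cdkn1a and Ccnd1 in each liver (points) by diet group, with the group mean and SD (bars). Each panel has its own vertical scale. The cHF+R livers of Cdkn1a, from 0.09 to 0.80, lie above all cHF livers.

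The mitotic genes were shifted toward higher values in cHF+R, with none past the threshold. All 12 measured had a positive change against cHF, with a median of 0.25, where 56.5% of all genes were positive and their median was 0.01. At an unadjusted p under 0.05 there were 9 of the 12, against 15% of all genes. The smallest adjusted p was 0.157, for Plk1. Of the 12, 8 were above background on every array, and 8 of those 8 were positive (median 0.26). The counts depend on single livers. In its group, cHF+R replicate 2 was the highest for 10 of the 12, while it was so for 12.2% of all genes. Without it all 12 stayed positive with a median of 0.20, but 2 were at an unadjusted p under 0.05, and 0 of the 8 above background on every array. Without cHF replicate 4, the array with 80.8% of spots well above background, all 12 stayed positive with a median of 0.21. Then 6 of the 12 were at an unadjusted p under 0.05, and 4 of the 8. Under median centring in place of loess, where the median of all genes moved to 0.15, 11 of 12 were positive and 10 were above that median. Markers of other cells were shifted in cHF+R as well. The 11 hepatocyte markers had negative changes against cHF (median -0.20; 1 fell, Serpina1c) and the 9 measured Kupffer cell and macrophage markers had positive ones (median 0.14, 0 called). The 5 erythroid markers had negative changes (median -0.20; 1 fell, Alas2, by 0.42 with an adjusted p of 0.0115), and 6 of the 7 stellate markers had positive ones (median 0.12, 0 called). Their part in the mitotic values was not tested.

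Among them Plk1, the polo-like kinase of mitotic entry and spindle assembly, ran from 0.05 to 0.42 (median 0.13) in cHF+R, against -0.22 to 0.07 (median -0.06) in cHF. Its change was 0.24 ± 0.09, higher on 5 of 5 slides, with overlap by a narrow margin. Cdc20, the activator of the anaphase-promoting complex, had the largest estimate, 0.53 ± 0.21 (adjusted p = 0.198), and a wide range in cHF+R, from -0.23 to 0.96. Ccnb1 was at 0.26 ± 0.10 (adjusted p = 0.164) and Ccnb2, cyclin B2, at 0.25 ± 0.10 (adjusted p = 0.198).

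Mki67, the proliferation marker Ki-67, ran from 0.04 to 0.45 (median 0.26) in cHF+R, against -0.12 to 0.10 (median -0.08) in cHF. Its change was 0.27 ± 0.13 (adjusted p = 0.324), and its second probe gave 0.31. Top2a, the topoisomerase that untangles chromosomes, had 0.14 ± 0.06 (adjusted p = 0.237) at a signal near background. Cdk1, the kinase of mitotic entry, had 0.14 ± 0.07. Birc5 (survivin), of the chromosomal passenger complex, had 0.31 with its brightest probe and 0.06 with a dim one, so its probes did not give the same size. The transcription factors that drive these genes were near 0 in cHF+R: Foxm1 at 0.08 ± 0.08, Mybl2 at -0.04 ± 0.05 and E2f1, the activator of the S-phase genes, at -0.09 ± 0.08. E2f1 was lowest in cHF+PC+R, at -0.18 ± 0.08 against cHF (adjusted p = 0.141), lower on 7 of 7 slides.

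**Figure D3:**
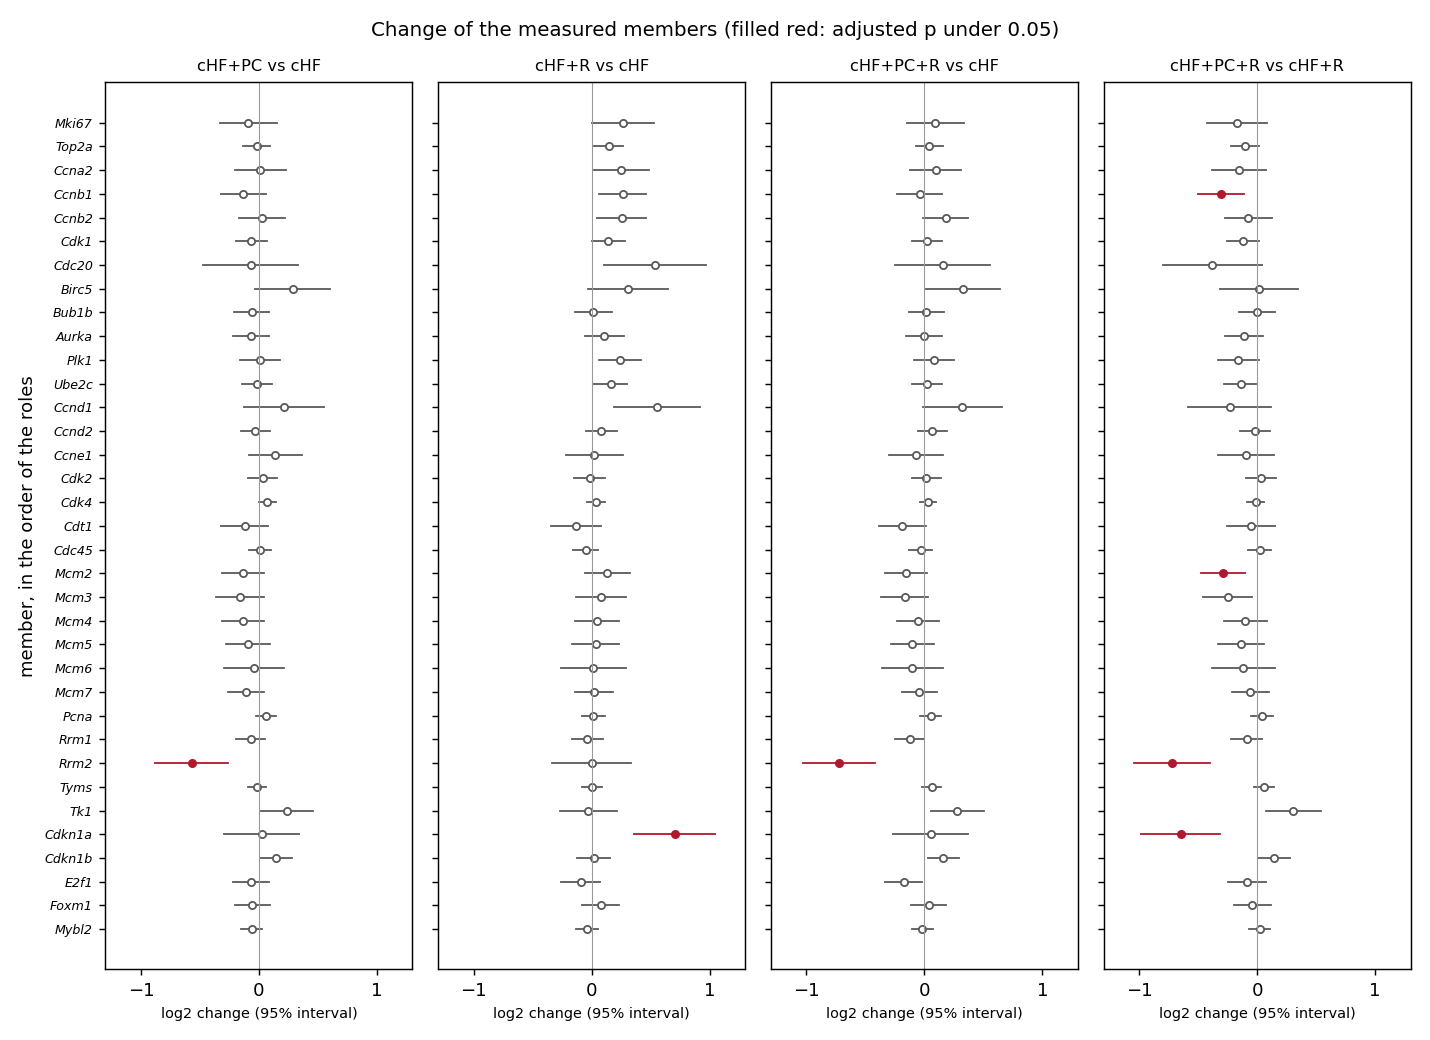
Log2 change of the 35 measured genes (points) with 95% intervals (lines) in 4 comparisons, in the order mitosis, G1 cyclins and kinases, licensing and fork, nucleotide supply, CDK inhibitors and transcription factors. Filled red points passed an adjusted p of 0.05: Rrm2 in 3 panels, Cdkn1a in 2, and Mcm2 and Ccnb1 in the last, while the mitotic genes lie right of 0 in cHF+R vs cHF with none filled.

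Averaged over both lipid states, the drug gave 0 of 35 genes past the threshold by limma (12 of the 35 at an unadjusted p under 0.05), against 4.2% of all genes that passed. Cdkn1a came nearest at 0.37 ± 0.11 (adjusted p = 0.0584), then Ccnb2 at 0.20 ± 0.07 (0.0876) and Ccnd1 at 0.33 ± 0.12 (adjusted p = 0.12). All 12 mitotic genes had a positive averaged change (median 0.16), against 57.8% of all genes, and 9 had an unadjusted p under 0.05, against 17.3%. In cHF+PC+R against cHF, 10 of the 12 were positive (median 0.06). There 1 had an unadjusted p under 0.05, against 24.4% of all genes. Without cHF+PC+R replicate 6, 6 of the 12 were positive in that comparison, with a median of -0.006. The averaged median was then 0.12, with all 12 positive and 7 at an unadjusted p under 0.05. Relative to cHF+PC, cHF+PC+R had 0 of 35 past the threshold by limma, against 0.134% of all genes. There 1 had an unadjusted p under 0.05, against 8.53% of all genes. All 12 mitotic genes had a positive change there too (median 0.08), where 55.6% of all genes did, with 0 at an unadjusted p under 0.05. Without cHF+PC+R replicate 6 it was 9 of the 12, with a median of 0.03. The comparisons share the cHF+PC+R livers. The smallest p values there were those of Tyms (0.08), Ccne1 (-0.21), Ccnb2 (0.15), Ccnd2 (0.10) and Mki67 (0.18), with adjusted p from 0.576 to 0.683.

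With phospholipids and the drug together, the mitotic genes differed from liver to liver more than in the other diets. The SD between cHF+PC+R livers was the widest of the 4 groups for 12 of the 12, where this group was the widest for 26% of all genes. The median SD of the 12 was 0.11 in cHF+PC, 0.16 in cHF+R, 0.25 in cHF+PC+R and 0.12 in cHF, and that of all genes lay from 0.10 to 0.11 in each group. Within cHF+PC+R, replicate 6 was the highest for 11 of the 12 and replicate 4 the lowest for 8, shares that were 16% and 14.8% over all genes. Mki67 was at 0.82 in replicate 6 and -0.52 in replicate 4, Birc5 at 1.00 and -0.82, and Cdc20 at 0.86 and -0.84. Without replicate 6 the group was still the widest for 10 of the 12, and without both for 7 of the 12, with a median SD of 0.19. Replicate 6 also had the highest mean of the adipocyte markers in its group, 1.82, against -2.30 to -0.35 in the other cHF+PC+R livers, and the highest mean of the lymphocyte markers, 0.29. Its mean of the Kupffer cell and macrophage markers, 0.27, was also the highest of the group, and its mean of the hepatocyte markers, 0.02, the lowest. In replicate 4 the adipocyte, lymphocyte, Kupffer cell and hepatocyte means were -0.67, 0.17, -0.10 and 0.04. In cHF+R replicate 2, highest of its group for most mitotic genes, these marker means were 0.41, 0.01, -0.18 and -0.10. The endothelial, stellate and cholangiocyte means were 0.001, -0.004 and -0.03 in cHF+PC+R replicate 6 and 0.08, -0.30 and -0.31 in replicate 4. In cHF+R replicate 2 they were -0.14, -0.24 and -0.17. The stellate and cholangiocyte means of cHF+PC+R replicate 4 and of cHF+R replicate 2 were the lowest of their groups. So were the endothelial means of cHF+PC+R replicate 6 and cHF+R replicate 2. Their part in the mitotic values was not tested. The mean over the 12 mitotic genes was 0.53 in cHF+PC+R replicate 6 and -0.34 in replicate 4, and the 7 cHF livers lay between -0.15 and 0.06.

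**Figure D4:**
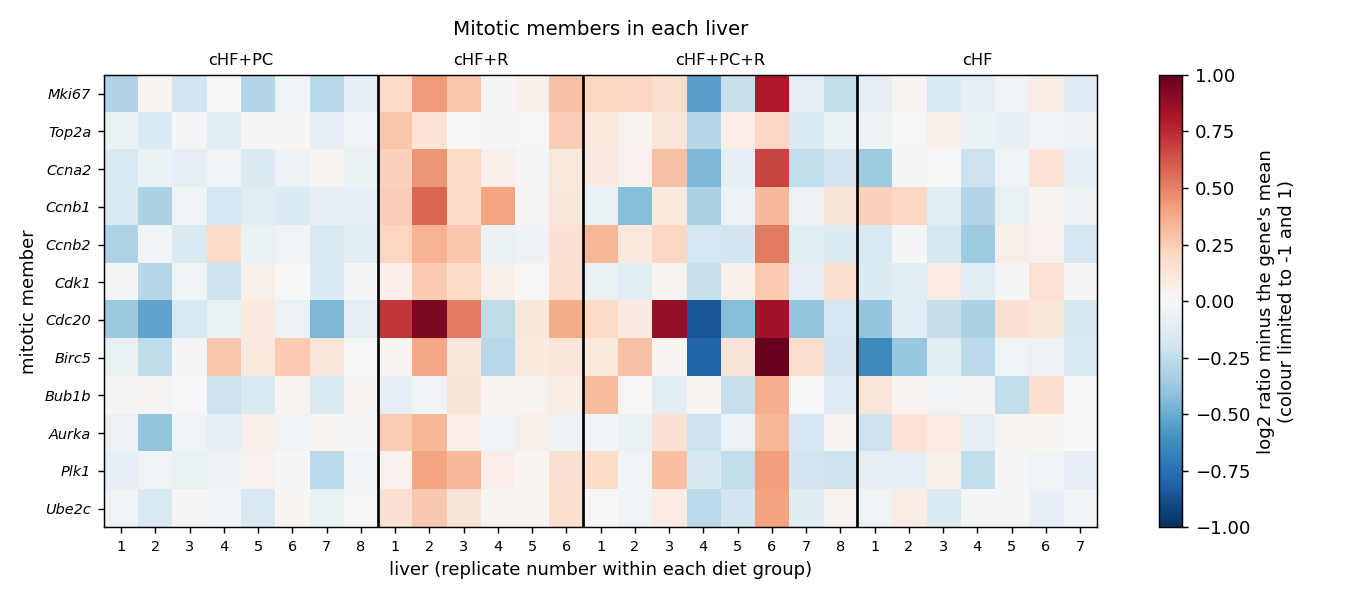
The 12 measured mitotic genes (rows) in each of the 29 livers (columns, with replicate numbers), as the log2 ratio minus the gene's mean over all livers. In cHF+PC+R, replicate 6 is red for the 12 genes and replicate 4 blue for most, and the cHF+R livers, replicate 2 above all, are redder than the cHF livers.

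**Figure D5:**
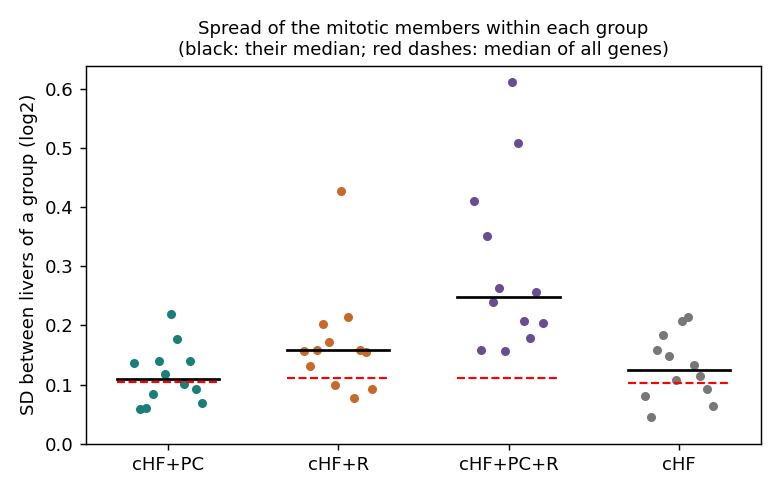
SD between the livers of a group (log2) for each of the 12 mitotic genes (points), with their median (black line) and the median of all genes tested (red dashes). The median is 0.25 in cHF+PC+R and 0.11 to 0.16 in the other groups.

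Other genes of the same pathways were read from lists of genes outside the 40. Of 17 other spindle and kinetochore genes, 0 passed in any of the 3 diets against cHF by limma, with 3 in cHF+PC, 2 in cHF+R and 1 in cHF+PC+R at an unadjusted p under 0.05. Over all genes those shares were 18.5%, 15% and 24.4%. In cHF+R 15 of the 17 had a positive change, with a median of 0.06. In the averaged phospholipid comparison Kif22, a chromosome-binding kinesin, fell by 0.21 ± 0.05 (adjusted p = 0.00785), and Pttg1 (securin), which holds separase inactive until anaphase, rose by 0.13 ± 0.04 (adjusted p = 0.043). That was 1 lower and 1 higher of the 17, where 16.2% of all genes passed in either direction.

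Of 34 other replication genes, Gins4, a subunit of the GINS complex that works with MCM and Cdc45, rose in cHF+R by 0.37 ± 0.06 (adjusted p = 0.000585) and in cHF+PC+R by 0.27 ± 0.06 (adjusted p = 0.00436). Rfc4, of the loader of the Pcna clamp, fell in cHF+PC+R by 0.30 ± 0.08 (adjusted p = 0.0174). In cHF+R and in cHF+PC+R against cHF, 1 of the 34 rose and 1 fell, where 3.12% and 9.5% of all genes passed. The list's median change was between -0.03 and -0.02 in the 3 diets against cHF.

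Of 13 other G1 cyclins, kinases and phosphatases, 3 fell and 1 rose in cHF+PC+R against cHF, where 9.5% of all genes passed. Ccnf (cyclin F), a substrate adaptor of an SCF ubiquitin ligase that targets Rrm2 protein, fell by 0.71 ± 0.14 (adjusted p = 0.00208). Ccnh, of the CDK-activating kinase, fell by 0.22 ± 0.05, and Ccnc, of the Mediator kinase module, by 0.14 ± 0.04. Cks1b, a CDK-binding cofactor in the degradation of p27, rose by 0.28 ± 0.08 (adjusted p = 0.0299). The same 4 passed in the averaged phospholipid comparison, with the same signs, where 16.2% of all genes did. By limma 0 passed in cHF+PC or cHF+R against cHF (3 and 0 at an unadjusted p under 0.05).

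Of 15 E2F, RB and DREAM regulators, E2f2, an activator of S-phase genes, fell in cHF+PC+R against cHF by 0.34 ± 0.10 (adjusted p = 0.0299). It was the 1 of the 15 that passed there, where 9.5% of all genes did. In the averaged phospholipid comparison the pocket protein Rbl2 (p130), which holds cell cycle genes silent in quiescence, rose by 0.14 ± 0.05 (adjusted p = 0.0303), and its relative Rb1 fell by 0.11 ± 0.04 (adjusted p = 0.0305). That was 1 higher and 1 lower of the 15, where 16.2% of all genes passed. Of 16 p53 targets and other CDK inhibitors besides Cdkn1a, 0 passed in cHF+R against cHF by limma (4 at an unadjusted p under 0.05), with 11 positive and a median of 0.08. Over all genes 3.12% passed there, 15% were at an unadjusted p under 0.05 and 56.5% were positive. Averaged over the drug, phospholipids lowered Cdkn2c (p18), an inhibitor of CDK4 and CDK6, by 0.18 ± 0.04 (adjusted p = 0.00209) and Bax, a mediator of apoptosis, by 0.14 ± 0.04 (adjusted p = 0.0154). These were 2 of the 16, where 16.2% of all genes passed. Cdkn2c fell by 0.25 ± 0.06 in cHF+PC+R relative to cHF+R (adjusted p = 0.00685), next to the fall of Cdkn1a. It was the 1 of the 16 that passed there, where 7.14% of all genes did.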

How the data were processed

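RNA of 29 livers (1 per mouse) was measured on 2-colour arrays. Each liver gave 1000 ng of RNA, labelled with Cy5 and with Cy3 per the labels' protocols, and each Cy5 product was hybridised against the pooled Cy3 products, with no dye swap. The authors excluded 2 arrays before normalization, per the series' text. Per the file headers, the deposited scanner files hold the linear intensity and local background of each spot from Agilent Feature Extraction (version 10.5.1.1, per the submitters' processing notes). A further table deposited by the authors holds log2 values of 25806 spots with a median of 9.03 in every column. Each column followed the log2 Cy5 intensity of its array (r from 0.990 to 0.999), and 27 of the 29 correlated best with their own array; the table was read as Cy5 levels, not ratios. With probes centred, its correlation with the log2 ratios was 0.854. Its normalization is unknown, and it served as an alternative.

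Intensities were corrected with normexp (offset 50) and normalized by loess within arrays with limma 3.58.1 in R 4.3.3 (data.table version 1.17.8). Control and outlier spots were left out and spots of a probe averaged. Kept were the 23932 of 39429 probes with a Cy5 signal well above background on 6 arrays or more and values on 20 or more, and a gene was its brightest kept probe (19465 genes). Of the 40 genes, 12 had several probes and 5 several that passed. Other genes were named through accessions, symbols or synonyms in the RefSeq table of GRCm38.p6.

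Group means were fitted to all 29 arrays with limma (lmFit, eBayes), sharing the spread. Tests are two-sided, with Benjamini-Hochberg adjustment across the 19465 genes and a threshold of 0.05. Each of the 3 supplemented diets was set against cHF, and cHF+PC+R also against each single addition. Both averaged effects and the interaction completed the set. Errors are SEs of the fit unless SD is written. At most 1 array of a group lay on each of 8 slides, so changes within slides are given. The number of arrays limits the precision.

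The 40 genes, the other lists, the comparisons and the rules were chosen with earlier results of these data known. Full values are given for genes past the threshold, for the 5 smallest p where fewer pass and for Mki67, Top2a, Cdk1, Ccnd1, Pcna, Mcm2, Rrm2, Cdkn1a, E2f1 and Foxm1. Of the other lists, up to 4 called genes per comparison are named. Some results of those lists are not reported here. The fit was checked on simulated data. Alternatives varied background correction, normalization, filters, probes, slide and replicate number as blocks, array weights, the groups fitted and each array left out.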

Additional observations from a re-analysis of the deposited data

Results flagged for a closer look

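In 6 of 140 combinations of a gene and a diet group, 1 liver stood apart from its group by Dixon's test, which chance alone does for about 1 group in 20. In cHF+PC, replicate 2 was lowest for Ccnb1 (-0.25, next -0.10) and for Aurka (-0.41, next -0.11), replicate 7 was lowest for Plk1 (-0.24, next -0.06) and replicate 4 was highest for Ccne1 (0.91, next 0.19). In cHF+PC+R, replicate 2 was lowest for Cdk2 (-0.37, next -0.09) and replicate 3 for Mybl2 (-0.10, next 0.05). None of these 6 is a value of Rrm2, Cdkn1a, Tk1, Mcm2, Mcm3 or Cdkn1b.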

How the results depend on the processing

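Over 15 alternatives and 29 single arrays left out, none of the 13 calls named for the 35 genes changed sign. Median centring left 0 calls in cHF+PC against cHF, in cHF+PC+R against cHF and in cHF+PC+R against cHF+R and 1 in the averaged phospholipid comparison, and scaling between arrays left 0, 0, 0 and 3, and 0 in cHF+R against cHF. The deposited table gave 0 in cHF+R against cHF, and fitting only the groups compared gave 3. Every probe on its own gave 2 in cHF+PC and 2 in cHF+PC+R against cHF, and array weights gave 2 in the last. In cHF+PC+R against cHF+R, where 4 were called, Cy5 alone, array weights, no filter and only the groups compared gave 2 each. The averaged drug comparison, with 0, gave 3 without background subtraction, 2 with the slide as a block and 1 each with Cy5 alone, processed signals, array weights and, chosen after seeing the data, without cHF+PC+R replicates 4 and 6. Leaving out single arrays gave 0 to 1 calls in cHF+PC, 1 to 2 in cHF+R and 1 to 2 in cHF+PC+R against cHF, 2 to 6 in cHF+PC+R against cHF+R, 4 to 7 and 0 to 2 in the averaged phospholipid and drug comparisons, and 0 in cHF+PC+R against cHF+PC and in the interaction. The cause of these shifts was not tested. Counts over all genes ranged over the alternatives from 10 to 1235 in cHF+PC (765), 70 to 799 in cHF+R (607) and 82 to 2338 in cHF+PC+R against cHF (1850), from 53 to 1739 in cHF+PC+R against cHF+R (1389), from 163 to 4034 for the averaged phospholipids (3162), from 129 to 1343 for the averaged drug (817), from 2 to 161 in cHF+PC+R against cHF+PC (26) and from 0 to 4 for the interaction (0). Of those calls in cHF+R against cHF, 64.9% were higher, against 93.8% after median centring, 85.7% after scaling and 39.4% in the deposited table; in cHF+PC+R against cHF+R 46.4% were, against 13.2% and 28.4% after the first pair. For the averaged phospholipids 46.9% were, against 23.9% after median centring, and for the averaged drug 63.2%, against 93% after it, 75.8% after scaling and 33.4% in the deposited table. In cHF+PC+R against cHF 49.9% were, against 30.6% in the deposited table. Single calls were lost under 2 of 15 alternatives for Rrm2 in each comparison of diets, 3 for Cdkn1a in both, 7 for Mcm2 and 10 for Ccnb1 in cHF+PC+R against cHF+R, and in the averaged comparison under 0 of 14 for Rrm2, 1 for Ccnb1, 2 each for Mcm2, Tk1 and Cdkn1b and 6 for Mcm3. Over 40 pairs of livers from different groups with the same replicate number, the median correlation of deviations was 0.018, and 14 were over 0.1. Over 274 pairs with other numbers the median was -0.006, and 60 were over 0.1. Of the 29 arrays, 9 correlated best with their own number. Whether the numbers pair the livers was not tested. With the replicate number as a block the counts for the 35 genes were 1 in each of the 3 comparisons with cHF, 3 in cHF+PC+R against cHF+R and 6 for the averaged phospholipids. The 5 genes not tested are limited by signal over background. So are Bub1b, Top2a, Foxm1, Cdk1 and Cdc45, which were above it on 8, 9, 17, 21 and 22 arrays. Plk1 and Cdkn1a were above it on 28 of the 29.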
